A study of Homo sapiens with 12 samples.

Results

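The 42 genes described here encode translation initiation and elongation factors. They were taken as a named list from the 28278 genes of a count table covering 4 lines of OCI-Ly7, an established human line of diffuse large B-cell lymphoma, and all 42 had a row. The lines were the unedited wild type, a line with the EZH2 Y646N gain-of-function mutation (EZH2 mutant), a kmt2d-/- line (KMT2D mutant) and a kmt2d-/- line that also carried EZH2 Y646N (double mutant). The mutants were made with CRISPR on the OCI-Ly7 background, and all lines were untreated. How many clones each line holds was not given in the sources used here, so a line and its genotype cannot be told apart. EZH2 methylates histone H3 at lysine 27 in Polycomb repressive complex 2, and KMT2D methylates histone H3 at lysine 4 at enhancers. RNA was measured by MARS-seq, which counts barcoded cDNA from the 3′ ends of transcripts.

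Translation starts when EIF2 brings the initiator tRNA to the small ribosomal subunit, EIF3 holds that complex together, and the cap-binding factor EIF4E with the scaffold EIF4G and the helicase EIF4A recruits it to the mRNA. EIF2B recharges EIF2 with GTP and is the point at which stress kinases slow initiation, while EIF4EBP1 blocks EIF4E until mTOR phosphorylates it. The EEF1 complex then delivers aminoacyl-tRNAs, EEF2 moves the ribosome along, and EIF5A relieves stalls. Many mRNAs of the elongation factors begin with a 5′ terminal oligopyrimidine (TOP) tract, a C followed by a run of C or T through which mTOR controls their translation.

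Transcript starts are shown first because counts below are given apart for members reported as TOP mRNAs and for the others. Of the 42 members, 13 were taken as reported TOP mRNAs from general knowledge, and 29 were not. RefSeq start sites (GRCh38.p14) matched 33 members, and the first 20 bases of 12 are given here, read on the strand of the gene. Capitals mark a C at the first base and the C or T letters that follow it without a break. The first 5 and EEF1G are reported TOP mRNAs, and EIF3D and EIF3K are members outside that list whose start also has the run. The last 4 are members without it that the results turn on.
EIF2S3, chrX:24054956-24054975, plus strand: CTCTTTTggcaacatggcgg
EIF4A2, chr3:186783577-186783596, plus strand: CTTTTCagtcgggcgctgag
EIF4B, chr12:53006456-53006475, plus strand: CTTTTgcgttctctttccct
EEF1A1, chr6:73521013-73521032, minus strand: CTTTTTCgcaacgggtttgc
EEF2, chr19:3985444-3985463, minus strand: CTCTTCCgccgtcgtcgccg
EEF1G, chr11:62573872-62573891, minus strand: actttgcggcagcgccgaga
EIF3D, chr22:36529147-36529166, minus strand: CTCTTTTCCTggtttctcaa
EIF3K, chr19:38619188-38619207, plus strand: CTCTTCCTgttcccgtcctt
EIF6, chr20:35284698-35284717, minus strand: gtgtgaggggaacctgggag
EIF3B, chr7:2354827-2354846, plus strand: atggctgggctgtagccgtc
EIF4G1, chr3:184314606-184314625, plus strand: ggaaatggttgtggactacg
EIF5A, chr17:7306999-7307018, plus strand: accacactagcgcgctagaa
A run of at least 5 letters opened 9 of the 33 matched members, 6 of them reported TOP mRNAs and 3 not. Of 35116 promoters in the table, 4.07% had such a run at the start base. EEF1G is reported as a TOP mRNA and its annotated start here has no run, so that the letters at 1 annotated start and the reported class differ for some members.

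Total counts ran from 1118710 to 3107871 over the 11 libraries, so that 3 counts correspond to 0.965 to 2.68 CPM, counts scaled to a library of 1000000 counts. There were 2 libraries of the EZH2 mutant, whose replicate 3 had no column and was not analysed here, and 3 of every other line. EZH2 mutant replicate 1 was the shallowest library and had the steepest slope of expression on the GC content of transcript ends, 0.388 log2 per 10% GC, against -0.223 to 0.149 in the other 10. All 9 B-cell markers were detected, with a summed level of 6716 to 12160 CPM. T and NK cell markers and fibroblast and epithelial markers summed to at most 1.62 CPM, with CD3D, CD2 and CD8A at 0. Of the 9 myeloid markers AIF1 held nearly all counts (321, against 13 of CD14 and 1 each of LYZ and ITGAM), so that their sum is nearly the level of 1 gene. It was 18.3 to 33.2 CPM in wild type, 9.62 to 10.7 with mutant EZH2, 10.1 to 16.2 without KMT2D and 3.52 to 4.62 with both changes, and CSF1R, FCGR3A, S100A8, S100A9 and MPO were at 0. The part of what this sum measures in the results was not tested. Counts of EZH2 and KMT2D themselves did not pass the test in any mutant against wild type (log2 -0.23 for EZH2 in the EZH2 mutant and 0.19 for KMT2D in the KMT2D mutant), EZH2 was higher in the double mutant than in the KMT2D mutant (log2 0.42, adjusted p = 0.03), and 3′ counts need not show the edits.

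The members together took 1.45% to 1.95% of all counts. By line the share was 1.61% ± 0.0523 (SD, n = 3) in wild type, 1.57% ± 0.0877 (n = 2) with mutant EZH2, 1.79% ± 0.165 (n = 3) without KMT2D and 1.60% ± 0.179 (n = 3) with both changes, and the libraries of each mutant line overlapped those of wild type. Enough counts for a test were present for 33 members. The other 9 were EIF5B (17 counts over all 11 libraries), EIF2B2 (11), EIF3A (34), EIF3C (0), EIF3F (13), EIF3H (56), EIF3M (16), EIF4E (3) and EIF4A1 (2). They include the cap-binding protein EIF4E and its partner helicase EIF4A1, each at 0 in 9 of 11 libraries. EIF4E had its 3 counts in wild type replicate 3 (0.767 CPM) and double mutant replicate 1 (0.494 CPM), and EIF4A1 had 1 count each in KMT2D mutant replicates 1 and 3. EIF3C had no count in any library, which allows up to 3 counts per library, and its near-identical copy EIF3CL had none either. No change can be read for these 9 genes from so few counts, and why the counts were low was not tested.

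EEF1A1, the factor that carries aminoacyl-tRNA to the ribosome and one of the most abundant proteins of the cell, had 159 counts over all libraries. Its partners in the EEF1 complex had 99063 (EEF1G), 28577 (EEF1B2) and 19629 (EEF1D). Reads shared with near-identical copies make a count uncertain: GENCODE 29 names 39 pseudogenes after EEF1A1, 13 after PABPC1, 13 after EIF4A1, and 8 each after EEF1B2, EEF1D and EEF1G. How the deposited counts treated such reads was not given in the sources used here, and their part in these values was not tested.

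**Figure D1:**
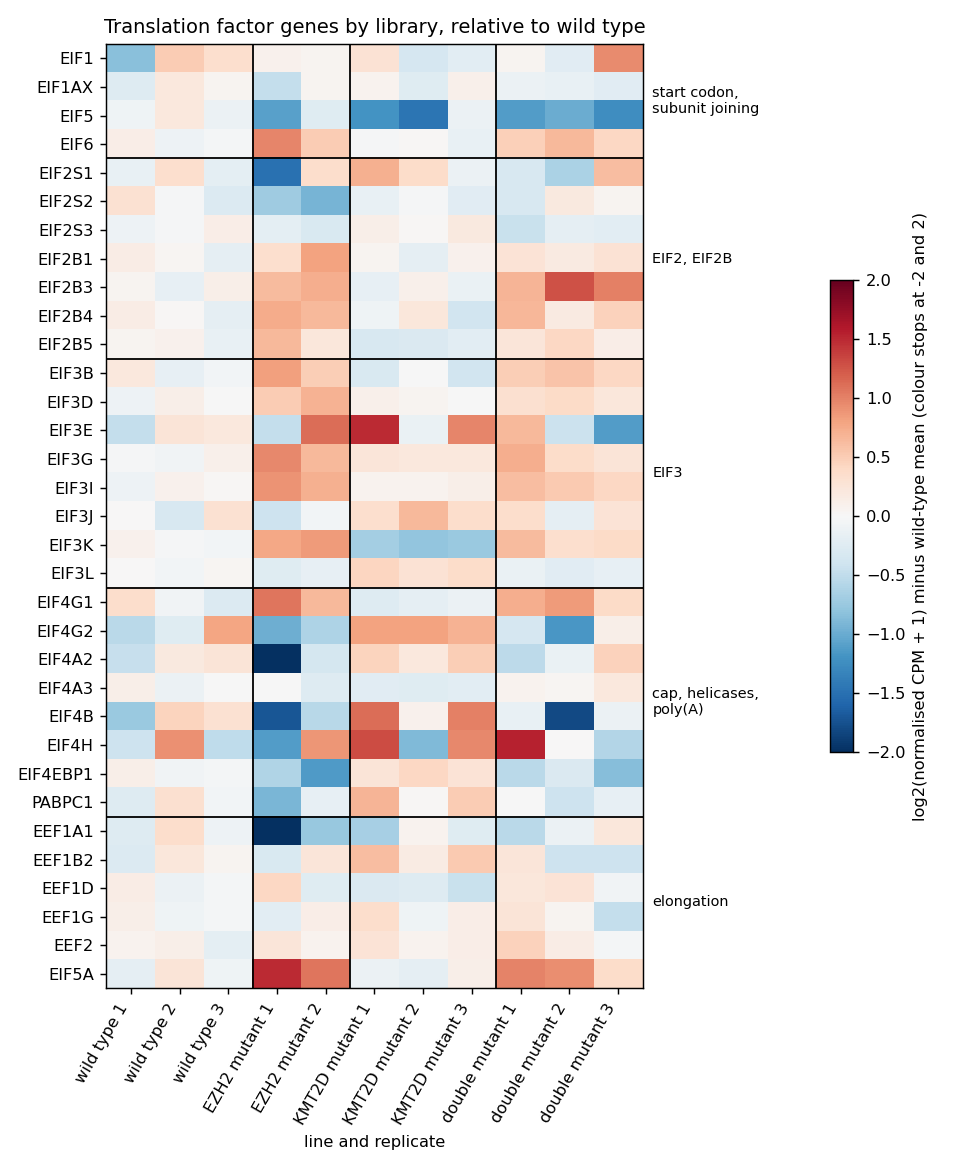
Each row is a tested member, grouped by role, and each column a library; colour gives log2(normalised CPM + 1) minus the mean of the 3 wild-type libraries. EIF5A, EIF4G1, EIF2B3 and EIF3B are redder in all 5 libraries with mutant EZH2 than in the KMT2D mutant libraries, while rows such as EIF4H and EIF4B change colour within a line.

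The spread within a line set which members could be compared. EIF3L and EIF3K were the steadiest, with a median coefficient of variation within lines of 3.65% and 4.82%. EIF4H, a helper of the EIF4A helicase, was the least steady at 70.2%, followed by EIF3E at 62.6% and EIF4B, another helicase cofactor, at 45.8%. EIF4H stood at 87.7, 221 and 82 in wild type, 53.3 and 215 with mutant EZH2, 291, 63.1 and 229 without KMT2D and 343, 118 and 77.3 with both changes (normalised CPM). Its range within wild type held the highest of the EZH2 mutant values, and its KMT2D mutant libraries differed by up to 4.62-fold. EIF4A2, the second cap helicase, stood at 109.8, 173 and 182 in wild type, 32.8 and 118 with mutant EZH2, 207, 174 and 213 without KMT2D and 105, 138 and 208 with both changes. EZH2 mutant replicate 1 was the lowest of these; the EZH2 mutant overlapped wild type, and both its libraries were below those of the KMT2D mutant. EIF4H, EIF3E, EIF4B and EIF4A2 passed in none of the comparisons with all 11 libraries and the filter used here. Without EZH2 mutant replicate 2, EIF4A2 passed as lower in the EZH2 mutant against wild type (log2 -2.25, adjusted p = 0.009, against -0.96 with it). EIF3E passed as lower in the double mutant against the KMT2D mutant without KMT2D mutant replicate 2 (log2 -1.46) or double mutant replicate 1 (log2 -2.01), and EIF4B without KMT2D mutant replicate 2 (log2 -1.58).

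In the EZH2 mutant, 12 members rose and 3 fell against wild type, by the quasi-likelihood test of edgeR with p-values adjusted by Benjamini-Hochberg over 8813 tested genes and a threshold of 0.05. Subunits of EIF2B and EIF3, the scaffold EIF4G1, the ribosome maturation factor EIF6 and EIF5A were higher, and EIF4EBP1, the inhibitor of EIF4E, was lower. The 18 other tested members did not pass, and no count can tell fewer cells of a kind from less RNA per cell. Of all tested genes 17.1% rose and 15.1% fell. The members' median log2 fold change was -0.02, against -0.04 for all tested genes, so that the rises of some members stood beside lower values in others.

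Among start codon and subunit-joining factors, EIF6 passed and EIF1, EIF1AX and EIF5 did not. EIF6 keeps the large subunit from joining the small one too early. EIF6 stood at 204, 172 and 181 in wild type, 365 and 266 with mutant EZH2, 182, 188 and 168 without KMT2D and 259, 292 and 248 with both changes (normalised CPM). Both EZH2 mutant libraries were above all 3 wild-type libraries, at log2 0.75 (SE 0.15, adjusted p = 0.000857).

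EIF2B had 5 listed subunits, of which 4 were tested, and all 4 rose in the EZH2 mutant. EIF2B3, part of the catalytic core of the exchange factor, stood at 35.1, 29.9 and 36.8 in wild type, 53.3 and 56.6 with mutant EZH2, 30.2, 36.2 and 30.6 without KMT2D and 54.8, 83.1 and 69.2 with both changes (normalised CPM). The wild-type and KMT2D mutant libraries all lay below every library with mutant EZH2. The other catalytic subunit, EIF2B5, stood at 108, 112 and 94.7 in wild type, 164 and 123 with mutant EZH2, 83.8, 85.2 and 90.0 without KMT2D and 123, 139 and 114 with both changes. Its EZH2 mutant libraries were above wild type, by a smaller margin than those of EIF2B3. The regulatory subunit EIF2B1, which senses phosphorylated EIF2, stood at 100.1, 92.5 and 79.4 in wild type, 115 and 158 with mutant EZH2, 93.5, 79.9 and 95.7 without KMT2D and 109, 103 and 110.4 with both changes. EIF2B4, also regulatory, stood at 50.9, 46.9 and 40.6 in wild type, 77.8 and 72.5 with mutant EZH2, 43.2, 53.7 and 34.9 without KMT2D and 73, 52.1 and 63.4 with both changes. For both, the EZH2 mutant libraries lay above the wild-type ones, and the KMT2D mutant libraries overlapped wild type. Log2 fold changes in the EZH2 mutant were 0.71 for EIF2B3 (SE 0.20, adjusted p = 0.0122), 0.44 for EIF2B5 (adjusted p = 0.0404), 0.61 for EIF2B1 (adjusted p = 0.00835) and 0.70 for EIF2B4 (adjusted p = 0.0112). EIF2S2, the beta subunit of EIF2 itself, stood at 34, 26.9 and 22.6 in wild type, 16.4 and 13.9 with mutant EZH2, 24.7, 26.9 and 23.4 without KMT2D and 21.7, 31.7 and 28.5 with both changes. It fell in the EZH2 mutant at log2 -0.89 (SE 0.27, adjusted p = 0.0183), with no overlap with wild type. The alpha and gamma subunits, EIF2S1 (log2 -0.16) and EIF2S3 (log2 -0.26), did not pass. With upper-quartile factors EIF2S3 passed as lower (log2 -0.429, adjusted p = 0.0172). The call of EIF2B5 was lost under 16 of 21 other settings. Without EZH2 mutant replicate 2, EIF2S2, EIF2B1 and EIF2B3 no longer passed (adjusted p = 0.163, 0.232 and 0.0899). EIF2B3 also missed without wild type replicate 2, and EIF2B4 missed without EZH2 mutant replicate 1 or wild type replicate 3 (at most 0.0512).

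EIF3 had 13 listed subunits and 8 tested ones, of which 5 rose in the EZH2 mutant and 0 fell. EIF3K, a small peripheral subunit, stood at 628, 579 and 566 in wild type, 1009 and 1061 with mutant EZH2, 369.8, 341 and 351 without KMT2D and 918, 748 and 767 with both changes (normalised CPM). The 4 lines did not overlap, with the KMT2D mutant lowest, then wild type, the double mutant and the EZH2 mutant. EIF3I, a subunit of the core module, stood at 281, 322 and 307 in wild type, 562 and 495 with mutant EZH2, 319, 318 and 329 without KMT2D and 464, 435 and 402 with both changes. EIF3G, which binds RNA in that module, stood at 290.3, 279.5 and 314 in wild type, 572 and 463 with mutant EZH2, 348, 340.3 and 341 without KMT2D and 488, 381 and 352 with both changes. EIF3B, the scaffold of the module, stood at 472, 365 and 395 in wild type, 718 and 578 with mutant EZH2, 329, 408 and 314 without KMT2D and 575, 607 and 542 with both changes. For these 3 subunits of one module, the EZH2 mutant libraries were above every other line, save that EIF3B in double mutant replicate 2 and EIF3G in double mutant replicate 1 were above EZH2 mutant replicate 2. EIF3D, a subunit that can itself bind the cap, stood at 298, 346 and 317 in wild type, 457 and 519.8 with mutant EZH2, 344, 331 and 319 without KMT2D and 399, 415 and 374 with both changes. Log2 fold changes against wild type were 0.81 for EIF3K (SE 0.13, adjusted p = 0.000134), 0.80 for EIF3I (adjusted p = 0.000128), 0.81 for EIF3G (adjusted p = 0.000407), 0.66 for EIF3B (adjusted p = 0.00278) and 0.61 for EIF3D (adjusted p = 0.0013). EIF3E (log2 0.66, SE 0.58), EIF3J (log2 -0.21) and EIF3L (log2 -0.20) did not pass. EIF3L passed as lower with upper-quartile factors (log2 -0.371, adjusted p = 0.0221). It also did so with GC and abundance trends removed (log2 -0.366, adjusted p = 0.00988).

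Of 8 tested factors of the cap, the helicases and the poly(A) tail, 1 rose and 1 fell in the EZH2 mutant. EIF4G1, the scaffold that joins the cap to the ribosome, stood at 268, 199 and 173 in wild type, 444 and 329.6 with mutant EZH2, 174, 185 and 193 without KMT2D and 349, 381 and 274 with both changes (normalised CPM). Every library with mutant EZH2 was above every library without it. The scaffold's log2 fold change was 0.86 (SE 0.18, adjusted p = 0.00157). EIF4EBP1 stood at 206, 181 and 187 in wild type, 125 and 86.4 with mutant EZH2, 229, 256 and 230.5 without KMT2D and 131, 156 and 105 with both changes. It was lower in all 5 libraries with mutant EZH2 than in the other 6, and its log2 fold change was -0.88 (SE 0.18, adjusted p = 0.00114). PABPC1, the poly(A)-binding protein (log2 -0.51, SE 0.24), EIF4G2, a scaffold for cap-independent starts (log2 -0.91, SE 0.41), and EIF4A3, the helicase of the exon junction complex (log2 -0.14), did not pass. With no filter, PABPC1 (log2 -0.555, adjusted p = 0.00286) and EIF4G2 (log2 -0.961, adjusted p = 0.00268) passed as lower. EIF4G2 also did so without wild type replicate 1 (log2 -1.13, adjusted p = 0.0376). Without EZH2 mutant replicate 2, PABPC1 stood at log2 -0.94.

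Among 6 elongation genes, 1 rose and 1 fell. EIF5A stood at 449, 610.3 and 481 in wild type, 1440 and 1073 with mutant EZH2, 471, 448 and 549.9 without KMT2D and 1009, 975 and 658 with both changes (normalised CPM). All 5 libraries with mutant EZH2 exceeded the 6 without it, and the log2 fold change in the EZH2 mutant, 1.29 (SE 0.18, adjusted p = 7.1e-05), was the highest among tested members. EEF2, the translocase, stood at 2996, 3105 and 2508 in wild type, 3363 and 3000 with mutant EZH2, 3450, 3011 and 3121 without KMT2D and 3916, 3177 and 2778 with both changes. These values overlapped between the lines, at log2 0.15 (SE 0.15, adjusted p = 0.467) in the EZH2 mutant. EEF1G (log2 -0.03), EEF1B2 (log2 -0.02) and EEF1D (log2 0.12) did not pass either. EEF1A1 stood at 6.79, 10.9 and 7.67 in wild type, 1.02 and 4.47 with mutant EZH2, 4.87, 8.73 and 6.89 without KMT2D and 5.43, 7.55 and 9.88 with both changes. Both EZH2 mutant libraries were below wild type, but they held only 1 and 9 counts, and 3 counts correspond to 2.68 CPM in replicate 1. EEF1A1 fell at log2 -1.39 (SE 0.52, adjusted p = 0.0458). This call was lost under 10 of 20 other settings, DESeq2 and limma-voom among them.

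**Figure D2:**
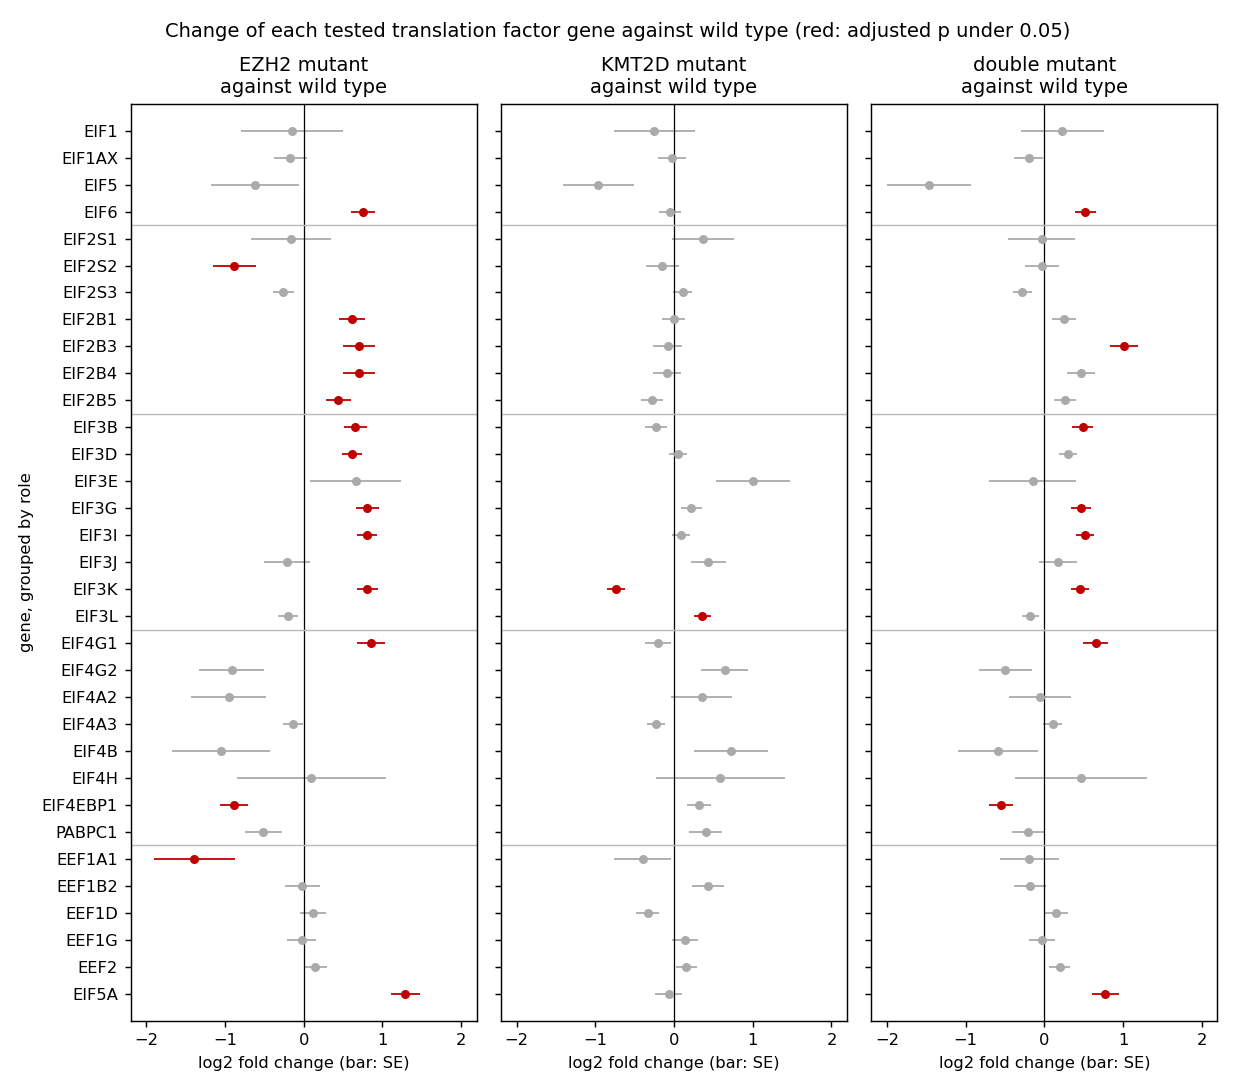
Points are log2 fold changes of the 33 tested members against wild type, bars are standard errors, and red marks an adjusted p under 0.05. In the EZH2 mutant 12 red points lie to the right and 3 to the left; in the KMT2D mutant there is 1 on each side, and in the double mutant 8 and 1.

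Members reported as TOP mRNAs and the others were counted apart. Of 11 tested TOP members, 0 rose and 1 fell in the EZH2 mutant (median log2 -0.20), and of the 22 others 12 rose and 2 fell (median log2 0.52). The shares over all tested genes were 17.1% higher and 15.1% lower (median log2 -0.04), and neither class was tested against them. Under DESeq2, limma-voom, the other scalings, the filters and removal of GC trends, 0 TOP members rose, and 11 or 12 of the others did. Lower TOP members numbered 3 without EZH2 mutant replicate 2 (median -0.317) and 3 with upper-quartile factors (median -0.371), 0 with DESeq2 or limma-voom, and 0 with the GC trend removed (median -0.098). The letters at the start gave a less clear division. Of 7 tested members that open with the run shown above, EIF3D and EIF3K rose and EEF1A1 fell. Of 19 matched and tested members without the run, 9 rose and 0 fell. EIF2S2 and EIF4EBP1, which fell, and EIF3G, which rose, had no matched start and are in neither group. The difference between the classes was not tested, since the members were chosen as a list. Members and classes were chosen with earlier results of these data known.

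GC content of the transcript ends moved with the same values. Across the 33 tested members the log2 fold change in the EZH2 mutant correlated with the GC content of the last 500 bases (Pearson 0.415, Spearman 0.567), against Pearson 0.268 over 8510 genes; members share libraries and are not independent. EIF5A ends have 55.5% GC, EIF3G 62.4% and EIF4G1 58.0%, while EIF4EBP1 fell with 60.2% and EEF1D, at 62.2%, had log2 0.12. With the GC trend of each library removed, 12 members rose and 2 fell, and with GC and abundance trends removed 11 rose and 3 fell. With upper-quartile scaling, which moved the median of all genes from -0.04 to -0.20, 11 rose and 5 fell.

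**Figure D3:**
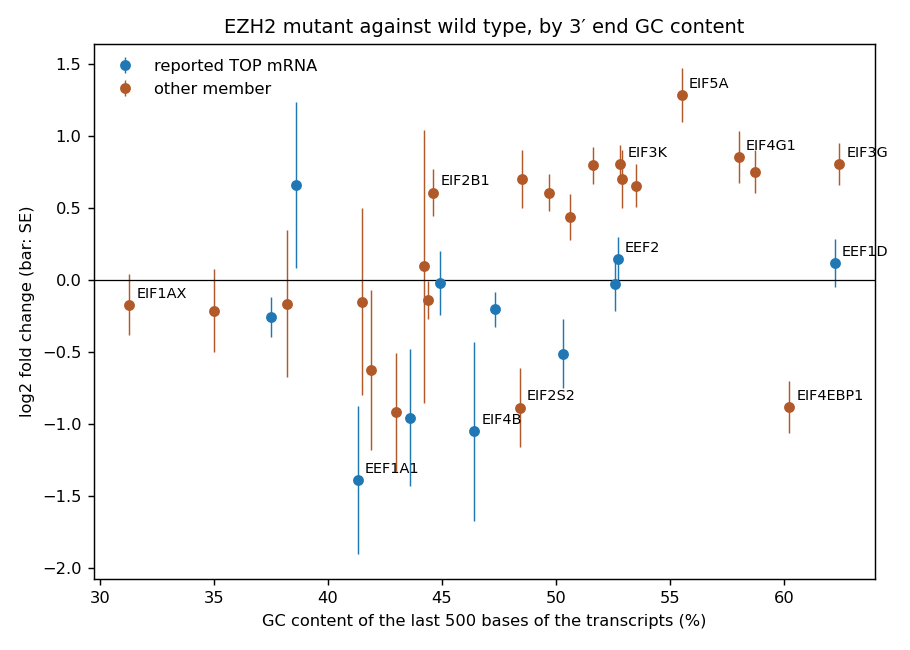
Points are the 33 tested members, the x axis is the GC content of the last 500 bases of their transcripts in percent, the y axis is the log2 fold change in the EZH2 mutant against wild type, and bars are standard errors. Members above 0.4 on the y axis lie at 44.6% GC or more except EIF3E, whose bar is wide, and the TOP members EEF2 and EEF1D lie near 0 at GC contents where other members rose.

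In the KMT2D mutant, 1 member rose and 1 fell against wild type, both of them EIF3 subunits, and 31 did not pass. Of all tested genes 3.18% rose and 4.48% fell, and the members' median log2 fold change was 0.05 against 0.004 for all. EIF3K fell by 0.739 on the log2 scale (SE 0.12, adjusted p = 0.000478), and its KMT2D mutant libraries, given above, were the lowest of all 11. EIF3L, the subunit that pairs with EIF3K at the edge of the complex, stood at 816, 784 and 839.6 in wild type, 687 and 726 with mutant EZH2, 1092, 992 and 1049 without KMT2D and 739, 694 and 725 with both changes (normalised CPM). All 3 KMT2D mutant libraries were above the other 8, and it rose at log2 0.36 (SE 0.11, adjusted p = 0.0474). That call was lost under 13 of 21 settings (adjusted p up to 0.188), while that of EIF3K passed under all 21. TOP members had a median of 0.35 (0.202 without wild type replicate 1) and the others of -0.06, with 1 of 11 and 0 of 22 higher. EIF4EBP1 stood above wild type in all 3 KMT2D mutant libraries without passing (log2 0.32, adjusted p = 0.225), and it passed with the GC trend removed (log2 0.45, adjusted p = 0.0117). EIF4G2 passed as higher with no filter (log2 0.615, adjusted p = 0.0293) and without wild type replicate 3 (log2 1.17, adjusted p = 0.00796).

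EIF3K lies on the long arm of chromosome 19 (chr19:38619082-38636955, plus strand, GENCODE 29 on GRCh38), and the tested genes around it were counted in the same comparisons. Of the 50 tested genes nearest to it, 25 on each side from WDR62 to PSMC4, 36 had a negative log2 fold change in the KMT2D mutant, 18 fell and 2 rose, with a median of -0.45, where 4.48% of all tested genes fell and 3.18% rose. In the double mutant against the KMT2D mutant, 22 of the 50 rose and 5 fell (median 0.41), with 21.2% and 20.8% of all. In the EZH2 mutant against wild type 11 rose and 5 fell (median 0.21), with 17.1% and 15.1% of all, and in the double mutant against wild type 6 rose and 5 fell (median 0.12), with 12.1% and 11.6% of all. EIF3K itself rose in all 3 of these comparisons. The number of copies of this region was not measured, and its part in the values of EIF3K was not tested.

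In the double mutant, 8 members rose and 1 fell against wild type, and 24 did not pass. Of all tested genes 12.1% rose and 11.6% fell; the members' median log2 fold change was 0.15 against -0.01. EIF3 again held the most, with EIF3I (log2 0.52, adjusted p = 0.00305), EIF3B (0.49), EIF3G (0.47) and EIF3K (0.46) higher. EIF2B3 had the highest log2 fold change, 1.01 (SE 0.18, adjusted p = 0.000381), and EIF2B1 (0.25), EIF2B4 (0.46) and EIF2B5 (0.26) did not pass. EIF5A rose at log2 0.78 (SE 0.17, adjusted p = 0.00294), EIF4G1 at 0.65 (adjusted p = 0.00723) and EIF6 at 0.52 (adjusted p = 0.0085). EIF4EBP1 fell by 0.553 on the log2 scale (SE 0.15, adjusted p = 0.0129). Of the 9 members that passed here none had libraries that overlapped wild type. Members that did not pass, such as EIF2B1 and EIF3D, had no overlap either, and overlap is not given here for all tested genes. The values of the same genes in the EZH2 mutant, given above, rest on the same 3 wild-type libraries. EIF5, the GTPase activator of EIF2, stood at 5.09, 6.46 and 4.98 in wild type, 2.05 and 4.47 with mutant EZH2, 1.83, 1.34 and 4.98 without KMT2D and 1.97, 2.27 and 1.74 with both changes (normalised CPM), and its log2 fold change of -1.47 (SE 0.53) missed the threshold at adjusted p = 0.0515, though the double mutant libraries all lay below wild type. The double mutant libraries held only 4, 3 and 3 counts of EIF5, and all 11 libraries together 83. EIF5 passed as lower under 7 of 21 other settings: RLE factors, upper-quartile factors, no filter, only the groups compared, and without EZH2 mutant replicate 1 or KMT2D mutant replicate 2 or 3. TOP members did not pass in either direction (0 of 11, median -0.18), and of the others 8 of 22 rose and 1 fell (median 0.28). The TOP median was -0.055 without wild type replicate 2, -0.069 without double mutant replicate 2, -0.308 without wild type replicate 1 and -0.03 with the GC trend removed, and with that trend removed 11 of the others rose. Upper-quartile factors gave medians of -0.29 and 0.165. EIF4G1 and EIF4EBP1 each failed without 1 library (wild type replicate 3, adjusted p = 0.0507, and double mutant replicate 3, 0.0568), EIF3K without wild type replicate 3 or double mutant replicate 1 (at most 0.0569), EIF3B without wild type replicate 2 or 3 or double mutant replicate 2 (at most 0.0767), and EIF3G without wild type replicate 2 or double mutant replicate 1 or with GC and abundance trends removed (at most 0.112).

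**Figure D4:**
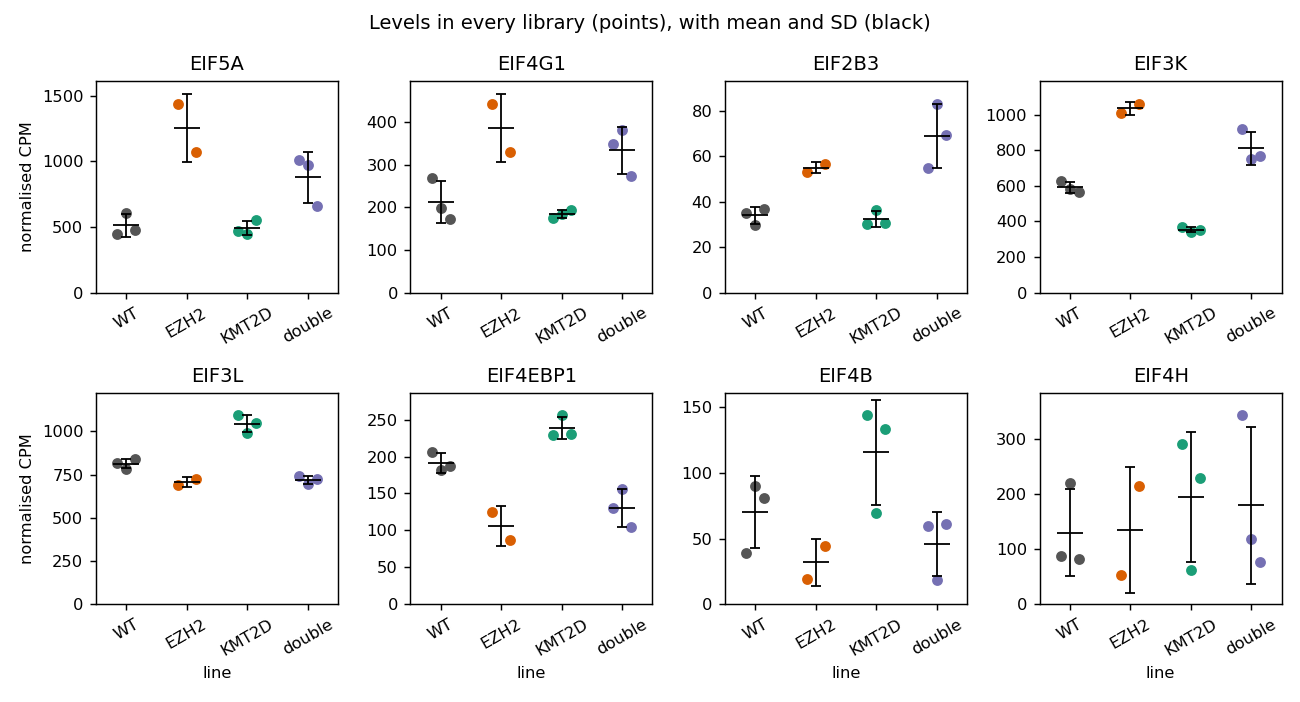
Normalised CPM of 8 members in each of the 11 libraries (points), with the mean and SD of each line in black and the y axis from 0. EIF5A, EIF4G1 and EIF2B3 are higher, and EIF4EBP1 lower, in the EZH2 mutant and double mutant than in the other lines; EIF3K is lowest and EIF3L highest in the KMT2D mutant, and the libraries of EIF4B and EIF4H overlap between most lines.

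The double mutant was then set against each single mutant. Against the KMT2D mutant, which asks what mutant EZH2 changes where KMT2D is lost, 11 members rose, 6 fell and 16 did not pass, with 21.2% of all tested genes higher and 20.8% lower and medians of 0.12 for members and -0.02 for all. EIF3K rose at log2 1.20 (SE 0.12, adjusted p = 3.47e-07), EIF2B3 at 1.09 (adjusted p = 8.23e-05), EIF4G1 at 0.86 (adjusted p = 0.000428), EIF5A at 0.85 (adjusted p = 0.00072) and EIF3B at 0.72 (adjusted p = 0.000378). EIF6 (0.57), EIF2B4 (0.55), EIF2B5 (0.54), EEF1D (0.48), EIF3I (0.43) and EIF4A3 (0.33) rose as well. EIF4EBP1, EIF3L and EIF4G2 fell. EIF4EBP1 had log2 -0.87 (SE 0.15, adjusted p = 0.000172), EIF3L had log2 -0.54 (adjusted p = 0.000706) and EIF4G2 log2 -1.14 (adjusted p = 0.0124).

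The remaining 3 lower members in that comparison, EEF1B2, PABPC1 and EIF2S3, are reported TOP mRNAs, as is EIF3L. EEF1B2, the nucleotide exchange factor of EEF1A, stood at 909.8, 1290 and 1145 in wild type, 897 and 1302 with mutant EZH2, 1691, 1235 and 1590 without KMT2D and 1301, 825 and 825 with both changes (normalised CPM). Its double mutant replicate 1 lay above KMT2D mutant replicate 2, so the groups overlapped, and it fell at log2 -0.61 (SE 0.20, adjusted p = 0.0228). PABPC1 stood at 887, 1328 and 1029 in wild type, 564 and 949 with mutant EZH2, 1702, 1079 and 1513 without KMT2D and 1059, 803 and 951 with both changes. The lowest KMT2D mutant library was above the highest double mutant library by a small margin (log2 -0.61, SE 0.21, adjusted p = 0.031). EIF2S3 stood at 274, 289 and 326 in wild type, 259 and 238 with mutant EZH2, 319.5, 301 and 339 without KMT2D and 217, 261 and 255 with both changes, with no overlap between the KMT2D mutant and the double mutant, at log2 -0.39 (SE 0.12, adjusted p = 0.0142). EIF4G2 stood at 22.6, 27.9 and 57.9 in wild type, 16.4 and 21.4 with mutant EZH2, 58.8, 59.1 and 54.4 without KMT2D and 26.1, 14.3 and 36 with both changes, where the double mutant lay below the KMT2D mutant in all libraries and overlapped wild type. EEF1D, the other exchange factor, stood at 1009, 832 and 884 in wild type, 1212 and 767 with mutant EZH2, 739, 756 and 663 without KMT2D and 1060, 1090 and 864 with both changes, the only TOP member that rose here (log2 0.48, adjusted p = 0.0154). EIF4A3 stood at 412, 346 and 378 in wild type, 375 and 316 with mutant EZH2, 323, 320.2 and 326 without KMT2D and 396, 388 and 436 with both changes, with the double mutant above the KMT2D mutant in all libraries and overlapping wild type. Of 11 TOP members 1 rose and 4 fell (median -0.41), and of 22 others 10 rose and 2 fell (median 0.30). The shares over all tested genes were 21.2% higher and 20.8% lower (median -0.02), and neither class was tested against them. The 4 lower TOP members became 2 without KMT2D mutant replicate 1 or 3 or double mutant replicate 2 or 3, and 6 without KMT2D mutant replicate 2. Upper-quartile factors gave 0 higher and 4 lower TOP members (median -0.55) and a median of 0.147 in the others.

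Several of these calls depended on the GC and abundance trends, on the scaling, test or filter, or on 1 library. EIF4A3 was lost under 10 of 21 other settings, among them DESeq2, upper-quartile factors, no filter and a filter at a mean of 10 CPM. EIF2B4 and EEF1D were also lost with upper-quartile factors. With the GC trend removed, 14 members rose and 3 fell, TOP members 1 and 1. PABPC1, EEF1B2 and EIF2S3 no longer passed, with EIF2S3 at log2 0.03. EIF1AX, EIF2B1 and EIF3D passed as higher, which they did not in the main analysis. With GC and abundance trends removed, 7 rose and 6 fell, and EIF6, EIF3I, EIF2B4, EEF1D and EIF4A3 no longer passed (adjusted p up to 0.458, for EEF1D). EIF2S3 failed without double mutant replicate 1 (log2 -0.32), and EIF2B4, EIF4A3, PABPC1, EEF1B2 and EEF1D each failed without 1 of 3 to 5 libraries of these lines, taken in turn. EIF3K, EIF2B3, EIF2B5, EIF3B, EIF3L, EIF4G1, EIF4G2, EIF4EBP1 and EIF5A passed under all 21 other settings.

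Against the EZH2 mutant, which asks what loss of KMT2D adds to mutant EZH2, 0 members rose or fell by edgeR, DESeq2 or limma-voom, and 8 of 33 had an unadjusted p under 0.05 in edgeR. Of all tested genes 0.715% rose and 1.58% fell by adjusted p, and the share at an unadjusted p under 0.05 is not given here. The medians were -0.001 for members and -0.01 for all. EIF2S2 had the smallest p of the members and was higher in all 3 double mutant libraries than in both EZH2 mutant libraries, without passing (log2 0.86, SE 0.28, adjusted p = 0.12). EIF5A was lower in all 3 double mutant libraries than in both EZH2 mutant libraries without passing (log2 -0.51, SE 0.19, adjusted p = 0.178). EIF3K was also lower in all 3 (log2 -0.35, SE 0.13, adjusted p = 0.183). The interaction of the 2 mutations is the EZH2 effect with KMT2D lost minus that with KMT2D present. It passed for 0 of 33 members by edgeR, DESeq2 or limma-voom. By adjusted p in edgeR, 1.5% of all tested genes passed as higher and 1.52% as lower. An unadjusted p under 0.05 in edgeR was found for 7 members, and the share of all genes at that unadjusted threshold is not given here. EIF2S2 had the smallest p, at log2 1.01 (SE 0.35, adjusted p = 0.138), and passed under 0 of 20 other settings. EIF3G followed in the other direction, at log2 -0.56 (SE 0.20, adjusted p = 0.147), and it passed with the GC trend removed (-0.62, adjusted p = 0.0459), with GC and abundance trends removed (-0.64, adjusted p = 0.0353) and without double mutant replicate 1 (-0.68, adjusted p = 0.0473).

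The EZH2 effects with and without KMT2D come from libraries that do not overlap, so they can be set side by side. Over the 33 tested members their log2 fold changes correlated at Pearson 0.652, and over all 8813 tested genes at 0.649. The sign was shared by 27 of 33 members and by 78.06% of all tested genes. The 10 members that passed in both were EIF6, EIF2B3, EIF2B4, EIF2B5, EIF3B, EIF3I, EIF3K, EIF4G1, EIF4EBP1 and EIF5A, each in the same direction, and 0 passed in opposite directions. Of all tested genes 21.6% passed in both in the same direction and 0.477% in opposite directions. EIF4EBP1 had log2 -0.88 and -0.87, and EIF4G1 0.86 and 0.86. The KMT2D effects with and without mutant EZH2 correlated at 0.167 over the members and 0.099 over all genes. Both effects had the same sign in 20 of 33 members and in 56.02% of all tested genes.

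**Figure D5:**
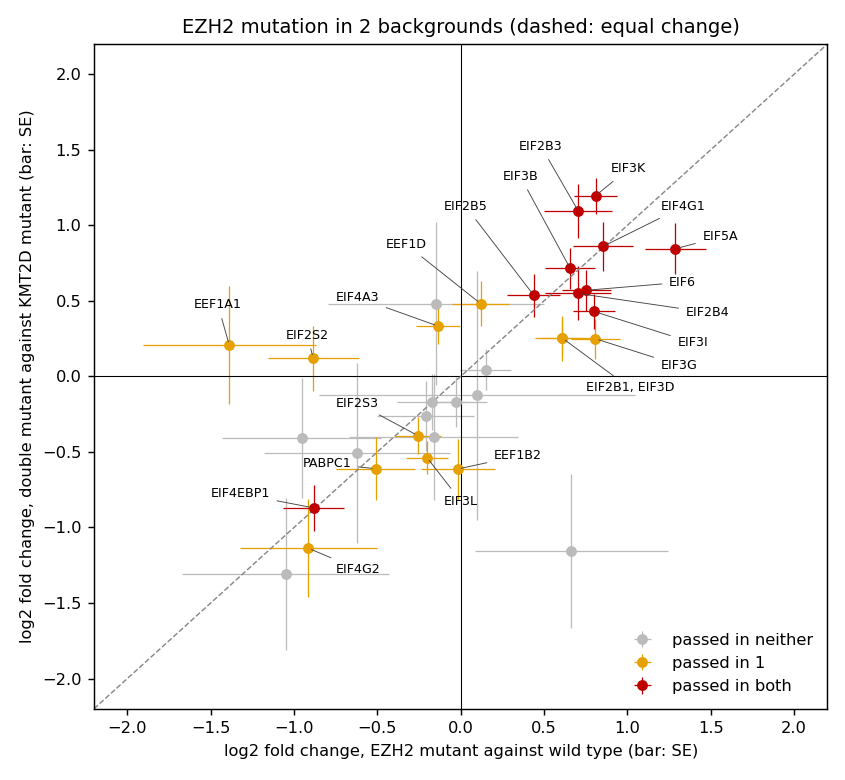
Each point is a tested member, with the log2 fold change of the EZH2 mutant against wild type on the x axis and of the double mutant against the KMT2D mutant on the y axis, bars for standard errors and a dashed line of equal change. The 10 red points passed in both, 9 of them in the upper right and EIF4EBP1 in the lower left.

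The rest of the translation machinery was read from 2 further lists. Among other initiation, termination and recycling factors 22 genes were tested. In the EZH2 mutant 2 rose and 2 fell, with 17.1% of all tested genes higher and 15.1% lower. In the KMT2D mutant 0 passed, with 3.18% and 4.48% of all. In the double mutant against wild type 2 rose and 2 fell, with 12.1% and 11.6% of all. EEFSEC, the elongation factor for selenocysteine, rose at log2 0.96 in the EZH2 mutant and 0.94 in the double mutant, and PABPC4, a poly(A)-binding protein, at 0.71 and 0.44. PAIP2 and PAIP2B, which keep PABP off the poly(A) tail, fell in both, PAIP2 at log2 -0.81 and -0.56 and PAIP2B at -1.27 and -1.08. In the double mutant against the KMT2D mutant 4 rose and 3 fell, with 21.2% and 20.8% of all. Among them were EEFSEC (0.99), PAIP2 (-0.83), PAIP1, a PABP partner that promotes translation (-2.11), and EIF1B (-0.71). EIF1B did not pass with the GC trend removed (log2 -0.162, adjusted p = 0.439). In the double mutant against wild type, PABPC4 was lost under 7 of 21 other settings and PAIP2 under 4, among them the omission of wild type replicate 3, double mutant replicate 1 or double mutant replicate 2 for both (adjusted p up to 0.135 and 0.107). In the EZH2 mutant, PAIP2 missed without EZH2 mutant replicate 1 (0.0508) and PAIP2B without EZH2 mutant replicate 2 (0.106).

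Of 28 tested regulators of initiation and elongation, 9 rose and 5 fell in the EZH2 mutant, with 17.1% and 15.1% of all. In the KMT2D mutant 1 rose and 3 fell, with 3.18% and 4.48% of all. In the double mutant against wild type 7 rose and 3 fell, with 12.1% and 11.6% of all. DDIT4, an mTOR inhibitor induced by stress, stood at 82.9 ± 10.1 normalised CPM in wild type (SD, n = 3), 322 ± 5.65 with mutant EZH2 (n = 2), 125 ± 15.7 without KMT2D (n = 3) and 352 ± 48.0 with both changes (n = 3). RPTOR, the substrate-binding subunit of mTOR complex 1, rose at log2 1.14 in the EZH2 mutant and 0.82 in the double mutant, and DEPTOR, an inhibitor of mTOR, fell at -0.95 and -0.81. DOHH, the enzyme that completes hypusine on EIF5A, rose at log2 0.95 in the EZH2 mutant, and MKNK2, a kinase of EIF4E, at 0.59 in the double mutant against wild type. In the KMT2D mutant DDIT4 rose (0.60), and AKT1S1, an mTOR complex 1 inhibitor (-0.86), PPP1R15A, the stress-induced subunit of the EIF2 phosphatase (-1.01), and MTOR itself (-0.68) fell. In the double mutant against the KMT2D mutant 11 rose and 4 fell, with 21.2% and 20.8% of all. Among them were DDIT4 (1.48), MTOR (1.00), DOHH (1.11) and PPP1R15A (1.28). Against the EZH2 mutant, where 0.715% of all rose and 1.58% fell, PPP1R15A rose (1.13) and 0 fell. That last call was lost without EZH2 mutant replicate 2 or double mutant replicate 2 or 3 (adjusted p up to 0.198). In the KMT2D mutant, PPP1R15A and MTOR missed without KMT2D mutant replicate 3 (0.0591 and 0.0861), and DDIT4 without wild type replicate 3 or KMT2D mutant replicate 1 (at most 0.0804). DEPTOR missed in the EZH2 mutant with the GC trend removed (0.0727). These genes were read by a rule on the smallest adjusted p, and whether the list differs from other genes was not tested. Translation itself was not measured.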

How the data were processed

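The authors deposited 1 table of counts per gene, called corrected without saying for what. Per the submitters' processing notes, STAR 2.7.0f, cutadapt 1.15, Trim Galore 0.6.0 and FastQC handled the reads, and DESeq2 is named without its role. The counter, build, annotation and strand were not given in the sources used here. Of 12 samples 11 had a column; the double mutant is marked DM there.

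The test was edgeR 4.0.16 in R 4.3.3 (filterByExpr with a minimum count of 10, TMM, 1 robust quasi-likelihood fit over 11 libraries), and p-values were adjusted by Benjamini-Hochberg over 8813 genes at 0.05. Normalised CPM are counts scaled to a TMM-adjusted library of 1000000. No label ties replicates to separate cultures, so p-values measure the spread between these samples, which may be technical. DESeq2 1.42.0, limma 3.58.1 and the settings named in the closing section were alternatives. The script was checked on simulated counts. Genes were placed by GENCODE 29 and starts read from RefSeq.

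All members may be named. Values per library are given for members that passed with no overlap of the groups and for 5 fixed members, and others were shown after their values were seen. Of the other lists up to 4 genes per comparison were named by adjusted p. Members and lists were chosen with earlier results of these data known. Figures were drawn with matplotlib 3.10.9 under Python 3.11.15.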

Additional observations from a re-analysis of the deposited data

Results flagged for a closer look

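The interaction of the 2 mutations passed for 2 regulators of translation and for none of the 33 tested members (edgeR, adjusted p under 0.05). Of the members 7 had an unadjusted p under 0.05, and the share of all genes at that threshold is not given here. By adjusted p, 1.5% of all tested genes passed as higher and 1.52% as lower. PPP1R15A, the stress-induced subunit of the phosphatase that acts on EIF2, stood at 52.4 ± 10.1 normalised CPM in wild type (SD, n = 3), 29.6 ± 7.42 with mutant EZH2 (n = 2), 26.2 ± 8.49 without KMT2D (n = 3) and 62.7 ± 1.09 with both changes (n = 3). Its EZH2 effect was log2 -0.86 with KMT2D and 1.28 without it, a difference of 2.14 (edgeR adjusted p = 0.000925) that passed under all 20 other settings. AKT1S1, an inhibitor of mTOR complex 1, stood at 61.8 ± 10.3 in wild type, 56.1 ± 14.8 with mutant EZH2, 33.5 ± 4.07 without KMT2D and 66.1 ± 7.32 with both changes. Its EZH2 effect was log2 -0.17 with KMT2D and 0.97 without it, a difference of 1.13 (edgeR adjusted p = 0.029) that was lost in 6 of 20 settings, each leaving out 1 library (adjusted p up to 0.188). Both genes lie on the long arm of chromosome 19, as does EIF3K, and the part of that region in these values was not tested.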

How the results depend on the processing

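Of the 15, 2, 9 and 17 member calls in the EZH2 mutant, KMT2D mutant and double mutant against wild type and in the double mutant against the KMT2D mutant, 9, 1, 4 and 9 passed under every other setting run for them. Against wild type the KMT2D mutant had 2 calls, and 1 with RLE factors, 1 with only the groups compared, 1 with a replicate block, 4 with no filter, 4 with GC and abundance trends removed and 1 to 2 when a library was left out. The double mutant against the EZH2 mutant had 0, and 1 with no filter (EIF5A) and 1 with GC and abundance trends removed (EIF4EBP1). The interaction had 0, and 1 with no filter (EIF3E), 1 with the GC trend removed (EIF3G), 1 with GC and abundance trends removed (EIF3G) and 0 to 1 when a library was left out. With a library left out, calls numbered 12 to 16 in the EZH2 mutant, 6 to 10 in the double mutant against wild type and 12 to 18 against the KMT2D mutant. In the double mutant against the KMT2D mutant with the GC trend removed, 2 members that passed in this or the main fit changed sign. EIF1AX passed as higher there (log2 0.41), and EIF2S3, lower in the main fit, did not pass (log2 0.03). Changes of sign in members that passed in neither fit are not included. The cause of these differences was not tested. Higher and lower calls split 8 and 3 with upper-quartile factors, 11 and 1 with the GC trend removed and 7 and 2 with GC and abundance trends removed in the double mutant against wild type (8 and 1 in the main analysis). Upper-quartile factors shifted the median of all genes to log2 -0.20, -0.13 and -0.17 in the EZH2 mutant, the double mutant against wild type and against the KMT2D mutant. Both removals of trends were chosen after seeing the data. The replicate block gave 14 calls in the EZH2 mutant, and with it EIF2B5 there, EIF3L in the KMT2D mutant and PABPC1 in the double mutant against the KMT2D mutant did not pass. Deviations of same-numbered libraries correlated at -0.289 to 0.376, over 0.1 in 5 of 15 pairs, against 10 of 30 pairs of different numbers. The numbers were not taken to pair samples because not every pair was over 0.1. Of 11 libraries 7 correlated best with one of their own number. This counts mutual pairs from both sides, such as wild type replicate 1 and EZH2 mutant replicate 1. It cannot decide whether the numbers pair samples. The fit of only the compared groups could not be had for the interaction, which uses all 4 lines. Too few counts left 9 of 42 members without a test, and why these counts were low was not tested. The EZH2 mutant rests on 2 libraries, the shallowest among them.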
